A study of Mus musculus with 2 samples.

Results

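The genes described here are the variable (V) segments of the mouse T cell receptor: all 175 of the 32285 features whose symbols begin with Trav, Trbv, Trdv or Tcrg-V. They comprise 128 Trav segments of the alpha chain, 35 Trbv segments of the beta chain, 6 Trdv segments of the delta chain and 6 Tcrg-V segments of the gamma chain. RNA of single spleen cells was captured in droplets and sequenced from the 3' end; a unique molecular identifier (UMI) on every captured molecule keeps copies made by PCR from being counted again. The design held 1 library from a wild-type (WT) mouse spleen and 1 from an age-matched mouse with a knock-in of the MEFV M694I change. The gene encodes pyrin, a sensor that assembles an inflammasome, and in people variants of it cause familial Mediterranean fever. Strain, age in weeks, the number of animals per library and how the allele was built were not stated in the labels. With 1 library per genotype no significance test was possible, and every interval below is an exact 95% interval for counting error only.

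A T cell builds its receptor genes by V(D)J recombination, which joins 1 V segment of each chain to joining and, for beta and delta, diversity segments. The joined exon is then spliced to a constant region. The choice of V segment shapes which peptides, lipids or other ligands the receptor can bind, and a normal spleen holds many T cell clones with different choices. Most splenic T cells carry an alpha and a beta chain together with the coreceptor CD4 or CD8, and a minority carry a gamma and a delta chain. Many Trav segments exist in near-identical copies, named with d or n, because a stretch of the alpha locus was duplicated in several mouse strains. The delta segments lie among the alpha segments, and some segments with dv in their names can serve either chain.

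The V segment lies at the 5' part of a receptor transcript, while these libraries read from the 3' end. The wild-type library held 32797052 UMIs in 10449 barcodes and the knock-in library 25193274 in 9000. After filtering, 9520 and 8389 cells remained, with medians of 2529 and 2021 UMIs. T cells were those with at least 2 UMIs of Cd3d, Cd3e and Cd3g, which code for the signalling chains of the receptor: 1794 wild-type cells (18.8% of kept cells) and 1687 knock-in cells (20.1%). All 10 genes of the T cell marker list were detected in both, but Cd3d, Cd3e and Cd3g are on that list and were selected by the gate itself. The 27 barcode sequences present in both libraries fell in 6 wild-type and 1 knock-in T cells. The base change of the knock-in cannot be read from these counts: Mefv itself had 143 UMIs in wild-type and 75 in knock-in kept cells.

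Sequences are shown for the segments on which the results turn: the most detected beta segment beside its closest relative, a trio and a pair of near-identical alpha segments, and the delta and gamma segments found most. Each is the last 60 bases, 5' to 3', of a segment's transcript in the GENCODE M21 annotation of GRCm38 (mm10), all on the plus strand. For Trav11 the last base of the annotated transcript was left off so that the pair lines up. In the beta and alpha sets capitals mark the bases that differ from a relative: Trbv12-2 and Trbv12-1 from each other, Trav16n and Trav16 from each other, and Trav16d-dv11 from Trav16. Trav11 and Trav11d have none. In the delta and gamma segments capitals mark the last TGT triplet.
Trbv12-2: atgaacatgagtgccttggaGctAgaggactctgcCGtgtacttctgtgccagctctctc
Trbv12-1: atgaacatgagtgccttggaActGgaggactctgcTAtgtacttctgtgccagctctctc
Trav16n: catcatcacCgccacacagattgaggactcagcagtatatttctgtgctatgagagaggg
Trav16d-dv11: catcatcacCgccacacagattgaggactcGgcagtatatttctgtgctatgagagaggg
Trav16: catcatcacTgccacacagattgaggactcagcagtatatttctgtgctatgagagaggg
Trav11: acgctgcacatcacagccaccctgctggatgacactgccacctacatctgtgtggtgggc
Trav11d: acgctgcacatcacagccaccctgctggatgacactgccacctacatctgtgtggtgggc
Trdv4: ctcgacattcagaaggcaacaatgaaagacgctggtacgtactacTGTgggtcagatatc
Trdv2-2: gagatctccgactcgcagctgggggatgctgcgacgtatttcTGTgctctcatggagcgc
Tcrg-V1: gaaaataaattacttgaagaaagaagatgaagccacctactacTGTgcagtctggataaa

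In GRCm38 coordinates the printed stretches of Trbv12-2 and Trbv12-1 are chr6:41119305-41119364 and chr6:41114008-41114067. Those of Trav16n, Trav16d-dv11 and Trav16 are chr14:53351562-53351621, chr14:53047762-53047821 and chr14:53743646-53743705. Trav11 is at chr14:53519799-53519858 and Trav11d at chr14:52824853-52824912. Trdv4 is at chr14:54075456-54075515, Trdv2-2 at chr14:53961543-53961602 and Tcrg-V1 at chr13:19340395-19340454. Each stretch lies in the last exon of its V segment gene.

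A minority of T cells showed any V segment. A V segment UMI was found in 409 wild-type T cells (22.8%, interval 20.9 to 24.8%) and in 354 knock-in T cells (20.98%, 19.06 to 23.01%). Most of these cells, 78.7% and 78.2%, had a single V segment UMI, and the highest number in a cell was 13 and 9. T cells with a V segment UMI had more UMIs in all (medians of 3382 and 2850) than those without (3095 and 2597). In all, V segments gave 563 wild-type and 475 knock-in UMIs in T cells, or 84.1 and 88.8 counts when scaled to a T cell total of 1e6 UMIs (CPM). These low numbers limit every value that follows.

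The signal lay mostly in the T cell gate. B cells, defined by at least 2 UMIs of Cd79a, Cd79b or Ms4a1 and none of Cd3, served as the background for free RNA: 3 of 6379 wild-type B cells (0.0470%) and 4 of 5574 knock-in B cells (0.0718%) had a V segment UMI, at median depths of 2357 and 1873.5 UMIs. Of all V segment UMIs in kept cells, 83.4% and 86.4% lay in T cells. For comparison, Trac, the alpha constant region, was found in 71.5% and 74.7% of T cells and in 2.19% and 1.83% of B cells.

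Of the 175 segments, 101 were detected in T cells, 71 of them in both libraries, and 74 had no UMI. Detected were 70 of 128 Trav, 23 of 35 Trbv, 5 of 6 Trdv and 3 of 6 Tcrg-V segments. Only 14 reached 20 UMIs over both libraries, the limit below which no ratio between groups was read. Annotated pseudogenes, which lack an intact reading frame or a working recombination signal, were mostly silent: 8 of 34 were detected, with 17 of the 1038 UMIs, against 93 of 141 annotated genes. In the beta locus this was nearly a clean split, since all 22 annotated Trbv genes and 1 of 13 Trbv pseudogenes had UMIs. The exception was Trbv24, with 3 UMIs in each library.

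T cells were divided by coreceptor and constant region. The CD4 gate required Cd4 and no Cd8a or Cd8b1 (236 wild-type and 164 knock-in cells), and the CD8 gate Cd8a or Cd8b1 and no Cd4 (485 and 617 cells). The gamma-delta gate required Trdc, the delta constant region, with no Cd4 or Cd8b1 (78 and 74 cells, 4.35% and 4.39% of T cells). The remaining 995 and 832 T cells showed no coreceptor UMI, or UMIs of both.

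Alpha and beta segments were found in about equal shares of T cells, and delta segments stood out in the gamma-delta gate. Trav was detected in 11.3% of wild-type and 9.84% of knock-in T cells, and Trbv in 10.8% and 11.1%. Within the CD4 gate 14.4% and 15.2% of cells had Trbv, and within the CD8 gate 10.7% and 13.3%. Thinned to 1000 UMIs per cell, which left out 3 knock-in CD4 cells and 1 and 2 CD8 cells, Trbv was found in 7.20% and 4.97% of CD4-gate cells and in 4.13% and 4.07% of CD8-gate cells, with overlapping intervals. Trdv was present in 17.9% (10.2 to 28.3%) and 12.2% (5.71 to 21.8%) of gamma-delta-gate cells and in 0.619% and 0.486% of CD8-gate cells. In the CD4 gate it was in 4 of 236 wild-type cells (1.69%, 0.464 to 4.28%) and 0 of 164 knock-in cells. Of the T cells outside these gates, 1.01% and 0.841% had it. Tcrg-V was present in 5.13% and 9.46% of gamma-delta-gate cells, and in 0 of 236 and 0 of 164 CD4-gate cells and 0 of 485 and 0 of 617 CD8-gate cells, whose upper limits were 1.55%, 2.22%, 0.758% and 0.596%.

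**Figure D1:**
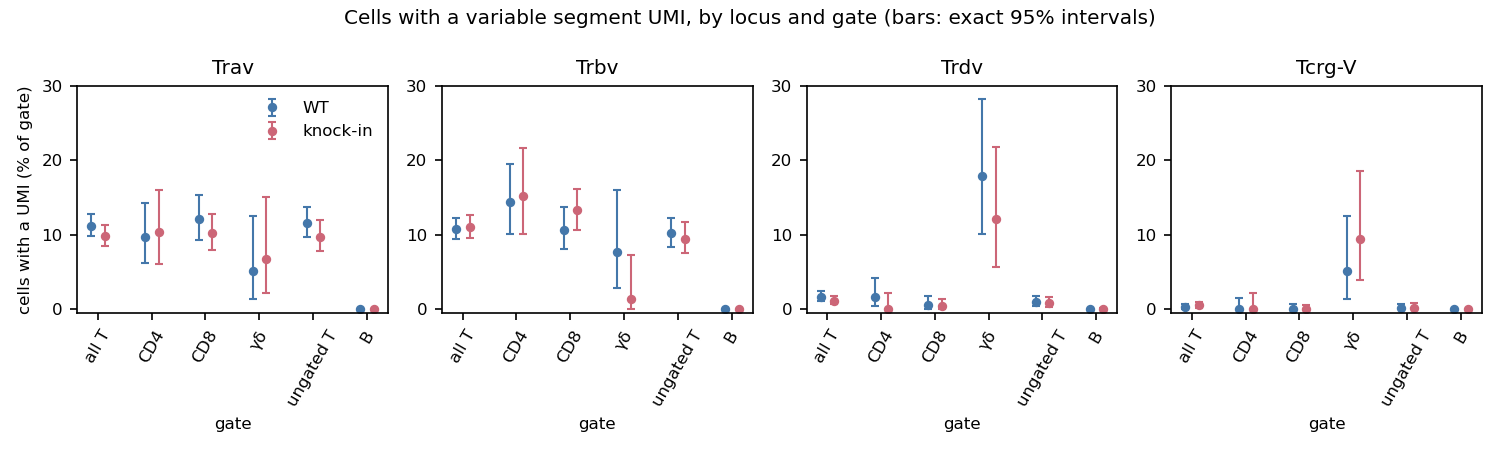
Share of cells with at least 1 UMI of a locus (y axis, % of cells in the gate) for each gate (x axis) in the wild-type (blue) and knock-in (red) library; bars are exact 95% intervals. Trav and Trbv lie near 10% in the alpha-beta gates, Trdv reaches 17.9% and 12.2% in the gamma-delta gate, and B cells lie near 0.

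A single beta segment dominated the Trbv detections. Usage here and below is a share of the cells with a UMI of the locus, which for Trbv were 10.8% and 11.1% of T cells. Whether all segments are captured alike was not tested, so usage cannot be taken as a share of the receptors. Trbv12-2, which is one of the segments that code for the V beta 5 family, was found in 57 of 194 Trbv-positive wild-type T cells (29.4%, 23.1 to 36.3%) and in 55 of 187 knock-in T cells (29.4%, 22.99 to 36.5%). It had 70 and 58 UMIs, at most 5 and 2 in a cell, and 48 of the wild-type and 52 of the knock-in cells had a single UMI of it. Its interval did not overlap that of any other Trbv segment in either library. The runner-up was Trbv19 (V beta 6) in the wild-type library, with 21 cells (10.8%, 6.83 to 16.1%), and Trbv2 (V beta 4) in the knock-in library, with 15 cells (8.02%, 4.56 to 12.9%). Trbv12-1, the closest relative of Trbv12-2, with 4 of the printed 60 bases different and 88.0% identity over the last 250 bases, was found in 2 and 3 cells. The annotated pseudogene Trbv12-3 had no UMI.

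Trbv12-2 was spread over all gates rather than tied to 1 of them. It made up 29.4% and 32.0% of Trbv-positive cells in the CD4 gate (10 and 8 cells) and 28.8% and 32.9% in the CD8 gate (15 and 27 cells). It was also found in 4 of the 6 Trbv-positive wild-type cells and the 1 Trbv-positive knock-in cell of the gamma-delta gate, and in 10 and 6 cells outside the T cell gate. Of the Trbv12-2 cells, 82.5% and 87.3% had Trac, and 98.2% and 98.2% had Trbc1 or Trbc2, the beta constant regions. B cell transcripts were present in 10.5% and 9.09% of them, beside 10.8% and 8.60% of all T cells.

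Below Trbv12-2 the beta segments formed a continuous order in which neighbours did not differ beyond their counting intervals. Trbv19 was in 21 wild-type and 12 knock-in cells, Trbv20 (V beta 15) in 18 and 11, and Trbv3 in 16 and 14. Trbv2 was in 11 and 15 cells, Trbv16 (V beta 11) in 10 and 8, Trbv13-2 in 9 and 10, and Trbv29 (V beta 7) in 8 and 11. The 3 segments of the Trbv13 group, which code for V beta 8, were together in 17 wild-type (8.76%) and 20 knock-in cells (10.7%). At the low end Trbv30 was found in 1 wild-type cell, Trbv21 in 1 knock-in cell, and Trbv31, which lies downstream of the constant regions in inverted orientation, in 4 wild-type and 0 knock-in cells.

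**Figure D2:**
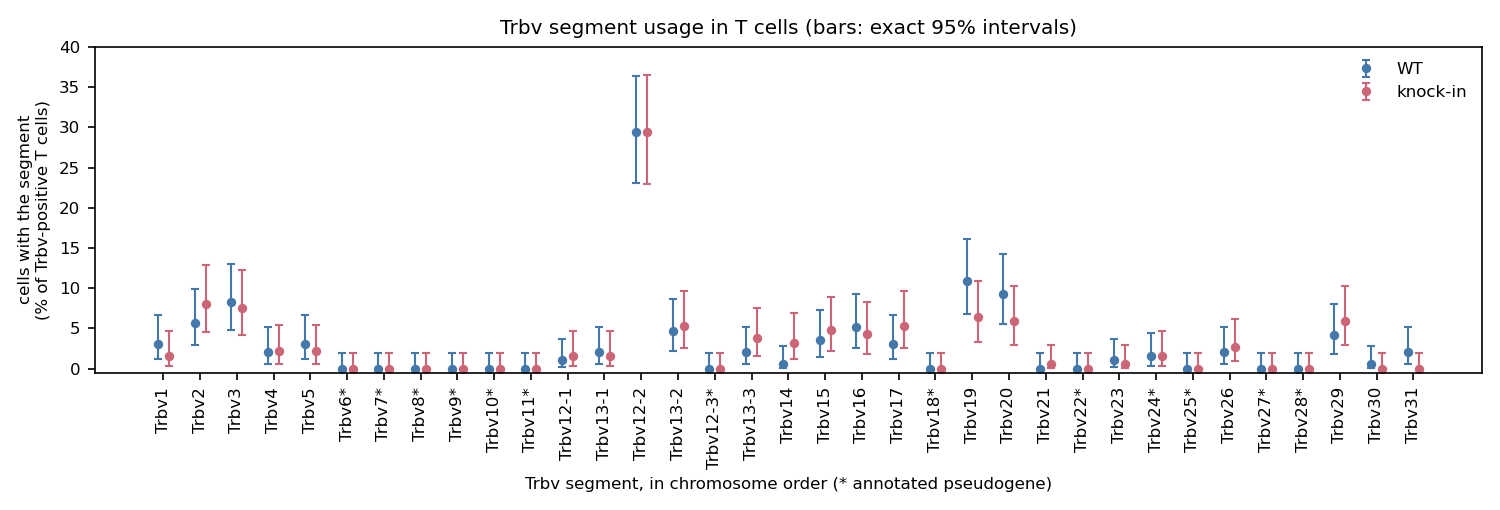
Usage of each Trbv segment in T cells: cells with the segment as % of all Trbv-positive T cells (y axis), with segments in chromosome order (x axis, annotated pseudogenes with an asterisk), wild-type in blue and knock-in in red; bars are exact 95% intervals. Trbv12-2 stands at 29.4% in both libraries, above all other segments, and all but 1 of the pseudogenes are at 0.

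Alpha usage was spread thinly over many segments. The most detected was Trav16n, in 17 of 202 Trav-positive wild-type cells (8.42%, 4.98 to 13.1%) and 7 of 166 knock-in cells (4.22%, 1.71 to 8.50%). In the knock-in library the leader was Trav6-7-dv9, a segment open to both the alpha and the delta chain, in 12 cells (7.23%), beside 8 wild-type cells (3.96%). Trav3-3 was in 16 and 7 cells, Trav13-1 in 10 and 8, Trav14d-3-dv8 in 14 and 4, and Trav16 in 12 and 6. Trav14n-3 was in 5 and 7 cells and Trav14-2 in 7 and 4. None of these 8 stood clear of its neighbours in the order.

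Grouping by family joins the copies. Trav14 was found in 35 wild-type (17.3%) and 22 knock-in cells (13.3%), Trav16 in 31 (15.3%) and 17 (10.2%), Trav13 in 27 (13.4%) and 18 (10.8%), and Trav6 in 25 (12.4%) and 27 (16.3%). These 4 families led in both libraries, in a different order. Segments of the duplicated d copies (15 of 39 detected) gave 11.3% and 15.2% of the Trav UMIs, those of the n copies (11 of 34 detected) 16.6% and 10.9%, and the other 55 Trav segments (44 detected) 72.1% and 73.9%.

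Trav genes with no sequence of their own were not seen. Among the 108 annotated Trav genes, 34 have no stretch of 90 bases that is absent from every other V segment described here. None of these 34 had a UMI in any kept cell of either library. Of the 57 genes that share a part of their 90-base stretches, 50 were detected, with 386 UMIs. Of the 17 genes unique along their whole length, 14 were detected, with 80 UMIs, so detection did not rise further with uniqueness. All 22 Trbv genes are unique along their whole length among these segments. A count of 0 for a gene with no unique stretch therefore does not show that it was unused.

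**Figure D3:**
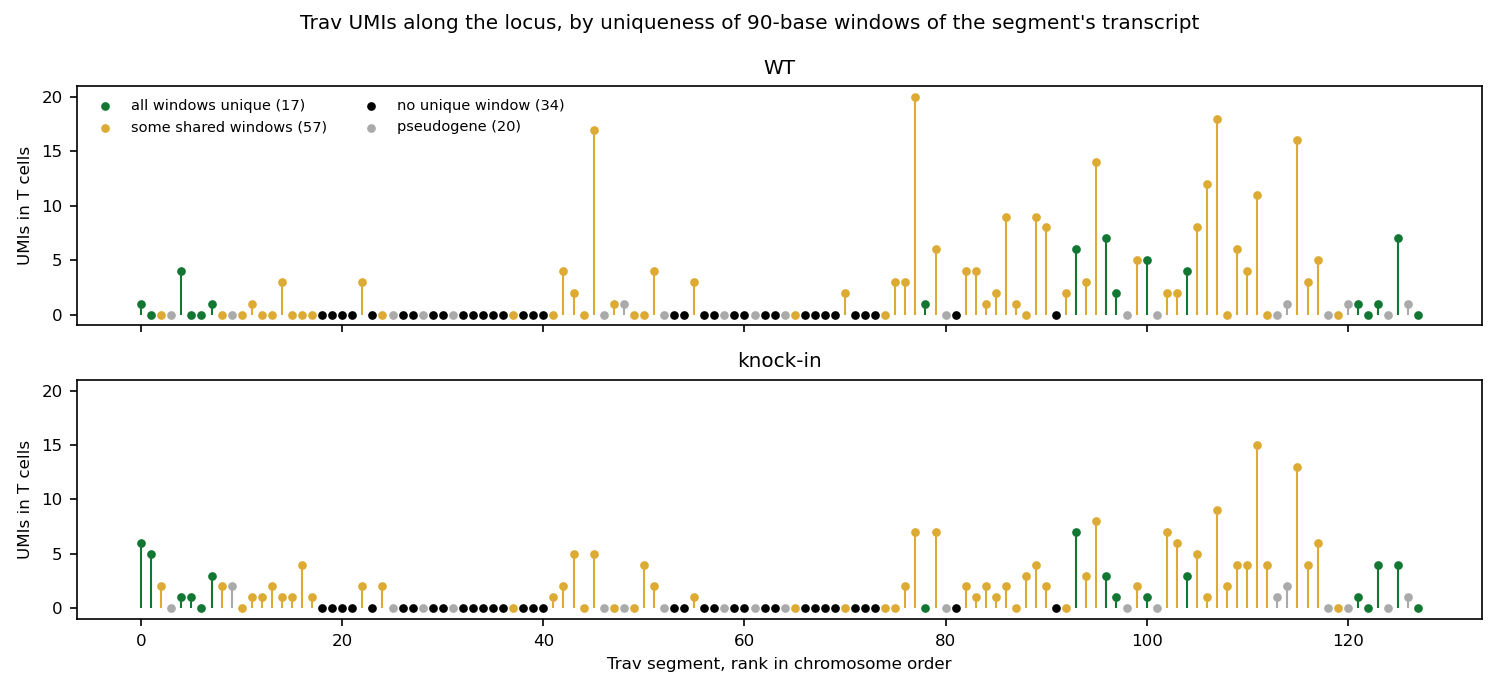
UMIs of each Trav segment in T cells (y axis), with segments ranked in chromosome order (x axis), for the wild-type (top) and knock-in (bottom) library. Colours give how many 90-base windows of the segment's transcript occur in no other V segment described here. The 34 genes with no unique window are all at 0, most of them in the middle of the locus, and the highest segment is Trav16n with 20 UMIs in the wild-type library.

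The printed trio shows how close such copies are. Trav16n and Trav16 differ at 1 of the 60 bases and Trav16d-dv11 differs from Trav16 at 2, and over 250 bases the nearest relative of Trav16n is 99.2% and that of Trav16 98.8% identical. They had 20, 16 and 2 wild-type UMIs and 7, 13 and 5 knock-in UMIs in the order Trav16n, Trav16 and Trav16d-dv11, so the split within the trio is uncertain while its sum, 38 and 25 UMIs, is less so. Trav11 and Trav11d are identical over 250 bases. Trav11 codes for the V alpha 14 chain that invariant natural killer T (NKT) cells carry. It was found in 2 wild-type T cells and 0 knock-in T cells, and Trav11d in none. Of the sequence stretches compared above, only 0.394% of those of Trav11 and 0% of those of Trav11d are unique among these segments. The counts of Trav11 and Trav11d therefore cannot measure the use of this chain, and no difference between the libraries is read from them. Trav1, the segment of mucosal-associated invariant T cells, was found in 1 wild-type and 4 knock-in cells. Zbtb16, a transcription factor of such innate-like T cells, was detected in 16 wild-type and 10 knock-in T cells.

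Among delta segments, Trdv4 and Trdv2-2 were found most. In the wild-type gamma-delta gate 7 of the 14 Trdv-positive cells had Trdv4, 5 had Trdv2-2, 2 had Trdv5 and 1 had Trdv1. In the knock-in gate 4 of 9 had Trdv4, 4 had Trdv2-2, 1 had Trdv5 and 1 had Trdv1. Trdv4 gave most of the Trdv UMIs in the gate: 34 of 42 wild-type and 17 of 25 knock-in UMIs, with up to 12 and 6 in a cell. Trdv2-2, by contrast, never exceeded 1 UMI per cell in this gate. Trav segments with dv in their names are not part of these counts. In the gate Trav15-2-dv6-2 had 3 wild-type UMIs in 2 cells and 1 knock-in UMI. Trav15-1-dv6-1 had 1 wild-type UMI, and Trav15d-1-dv6d-1 and Trav13-4-dv7 had 1 knock-in UMI each. All Trav segments together had 5 wild-type and 6 knock-in UMIs there.

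Gamma segments were rarer. Tcrg-V1 was found in 3 gamma-delta-gate cells of each library, Tcrg-V4 in 0 wild-type and 3 knock-in cells, and Tcrg-V6 in 1 and 1. In all T cells Tcrg-V4 had 0 and 5 UMIs. Tcrg-V3, Tcrg-V5 and Tcrg-V7 had none, and Tcrg-V3 is 97.2% identical to Tcrg-V1 over the compared bases. The V gamma 2 gene is listed under the symbol Trgv2 and so lies outside the members: it had 20 wild-type and 12 knock-in UMIs in T cells, 13 and 5 of them in the gamma-delta gate.

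Cells of the gamma-delta gate also held transcripts of the alpha and beta constant regions and of NK cell markers. The constant regions of the gamma chain were found in a minority of its cells, Tcrg-C1 in 26.9% and 20.3%, Tcrg-C2 in 24.4% and 16.2% and Tcrg-C4 in 14.1% and 12.2%. Trac was found in 37.2% and 28.4% of them, beside the 71.5% and 74.7% of all T cells. The beta constant regions were near their shares in all T cells: Trbc2 was in 80.8% and 85.1% of gate cells, beside 89.9% and 89.2%, and Trbc1 in 61.5% and 52.7%, beside 54.9% and 55.8%. All 5 natural killer (NK) cell markers (Gzma, Klra8, Klrb1c, Ncr1, Tyrobp) had UMIs in the gate, at summed levels of 298.9 and 472.8 CPM and in 21.8% and 21.6% of cells, beside 122.97 and 123.64 CPM and 7.30% and 7.11% in all T cells. Tyrobp alone gave 167.2 and 304.6 CPM of the sums in the gate. Gzma was at 28.5 CPM in the wild-type gate, below its 56.9 CPM in all wild-type T cells. The other markers were higher in the wild-type gate than in all T cells, and all 5 were higher in the knock-in gate. Where the transcripts of other chains and of NK cells came from, and their part in the usage values, was not tested.

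Trdv transcripts also occurred in cells without any Cd3 UMI, more often than those of the other loci. Such cells held 36 wild-type and 30 knock-in Trdv UMIs, in 31 of 7362 and 26 of 6422 cells, beside 7 and 4 Trav UMIs and 11 and 7 Trbv UMIs. Tyrobp or Gzma, transcripts of NK and other innate cells, were found in 30 of the 31 (96.8%) and in 24 of the 26 cells (92.3%), beside 22.1% and 19.1% of all cells without Cd3. Rora and Il7r, which innate lymphoid cells express, were in 19.4% and 16.1% of the wild-type and 46.2% and 38.5% of the knock-in Trdv-positive cells, beside 1.84 to 3.68% of all cells without Cd3. Cd79a was in 0 and 2 of the Trdv-positive cells. In a set of Cd3-negative cells with Ncr1, Klrb1c or Klra8 and no B cell transcript, chosen after these values were seen, Trdv4 was present in 4.92% of 264 wild-type cells (2.65 to 8.27%) and in 6.99% of 143 knock-in cells (3.404 to 12.5%). The other Cd3-negative cells that were neither in this set nor B cells also had it, in 12 of 719 (1.67%, 0.865 to 2.90%) and 9 of 705 (1.28%, 0.585 to 2.41%), with 16 and 9 UMIs beside 14 and 12 in the NK-marker cells. B cells of similar depth had it in 0 of 6379 and 2 of 5574 cells. The share in NK-marker cells overlapped that in the gamma-delta gate, 8.97% (3.68 to 17.6%) and 5.41% (1.49 to 13.3%).

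The Trdv4 cells of the 2 settings differed in depth of signal. The NK-marker cells had at most 2 Trdv4 UMIs each, in both libraries, beside 12 and 6 in the gamma-delta gate. Their level of 20.8 and 39.1 CPM was below the 121.0 and 77.3 CPM of the gate. Trdc was found in 9.09% and 8.39% of the NK-marker cells and Tcrg-C1 in 1 of 264 and 0 of 143.

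**Figure D4:**
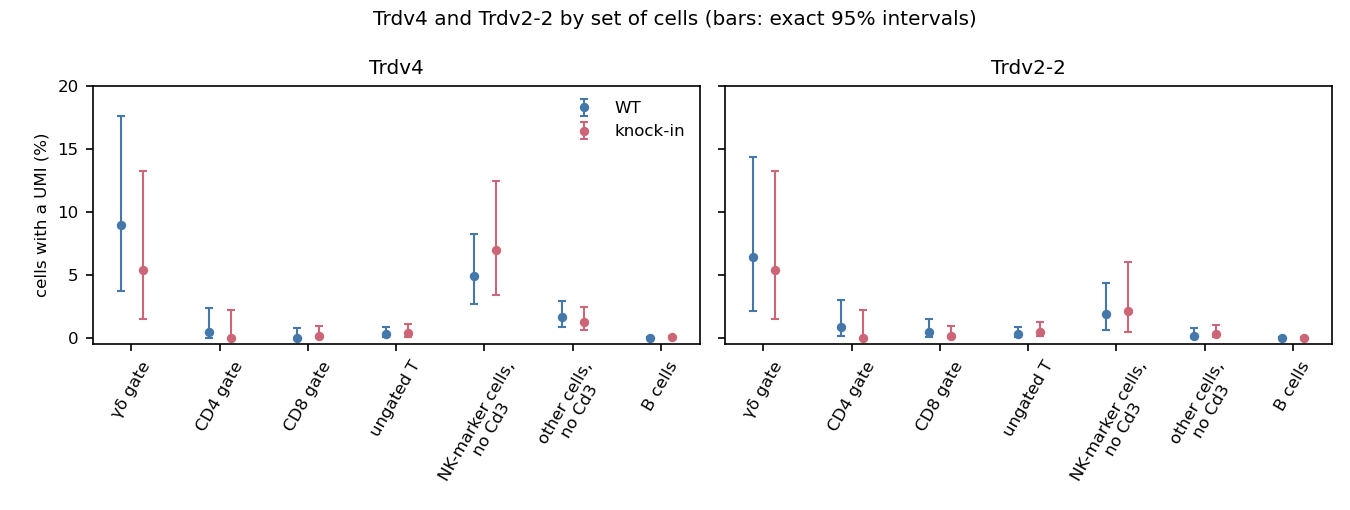
Share of cells with a UMI of Trdv4 (left) and Trdv2-2 (right) on the y axis, for the T cell gates, for cells without Cd3 UMIs and for B cells on the x axis, wild-type in blue and knock-in in red; bars are exact 95% intervals. Trdv4 reaches 4.92% and 6.99% in NK-marker cells without Cd3 and 1.67% and 1.28% in the other cells without Cd3, and lies at or near 0 in B cells and in the CD4 and CD8 gates.

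Knock-in and wild-type T cells did not differ in the level of any V locus beyond counting error. The log2 ratio of CPM, knock-in over wild-type, was -0.00 for Trav (265 and 211 UMIs in the order wild-type and knock-in, interval -0.27 to 0.26) and 0.21 for Trbv (232 and 214 UMIs, -0.07 to 0.48). It was -0.30 for Trdv (60 and 39 UMIs, -0.92 to 0.31) and 1.20 for Tcrg-V (6 and 11 UMIs, -0.36 to 2.92). Every one of these 4 intervals includes 0, and a change of 1.5-fold lies inside that of Trdv on the lower side and inside that of Tcrg-V on the upper side. The Tcrg-V sum leaves out the gamma segment Trgv2, which alone had more UMIs, 20 and 12, and a ratio below 0 (-0.41, -1.58 to 0.69). The Tcrg-V value is therefore not the level of all gamma segments. Thinned to 1000 UMIs per cell, Trav was found in 3.74% of 1790 and 4.03% of 1664 T cells and Trbv in 3.63% and 3.97%.

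No single segment passed the rule for a difference, a ratio of at least 1.5-fold with an interval that leaves out 0. Of the 14 segments with at least 20 UMIs, 0 were higher and 0 lower in the knock-in library, beside 5.48% higher and 4.1% lower of the 10511 features with at least 20 UMIs. Among the 3838 of these features with no more UMIs than the highest segment, 285 were higher and 212 lower. The median log2 ratio of the 14 segments was -0.23, beside 0.01 over all features. Trav14d-3-dv8 had the lowest ratio, with 17 wild-type and 5 knock-in UMIs in 14 and 4 cells (log2 ratio -1.44, -3.24 to 0.06). Trav16n followed, with 20 and 7 UMIs (-1.19, -2.68 to 0.11), and both came close to the rule. With doublets kept both passed it, at -1.51 and -1.32, and with 1 Cd3 UMI Trav14d-3-dv8 did, at -1.54.

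Trdv4 had 39 wild-type and 22 knock-in UMIs in 11 and 8 cells (log2 ratio -0.50, -1.33 to 0.29). B cell transcripts were present in 9.09% and 37.5% of these cells. Without cells with a B cell transcript Trdv4 had 38 and 13 UMIs and passed the rule (-1.22, -2.25 to -0.28). Both intervals take every UMI as a separate draw, while up to 12 wild-type and 6 knock-in Trdv4 UMIs lay in 1 T cell. They are therefore too narrow for this segment. The same holds for the Trdv sum, to which Trdv4 gave 39 of 60 wild-type and 22 of 39 knock-in UMIs. The other ratio intervals also take every UMI as a separate draw, while up to 8 wild-type and 6 knock-in Trav UMIs lay in 1 T cell. With 3 Cd3 UMIs Trbv19 passed the rule, at -1.26.

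The other segments named at the ends of the ranking had wider margins. Trav3-3 had 18 and 9 UMIs (-0.68, -2.01 to 0.55), Trbv19 had 23 and 12 (-0.61, -1.76 to 0.45) and Trbv20 had 21 and 11 (-0.61, -1.81 to 0.51). At the high end stood Trbv29 with 10 and 16 UMIs (1.00, -0.23 to 2.30), Trav6-7-dv9 with 11 and 15 (0.77, -0.45 to 2.04) and Trbv2 with 13 and 17 (0.71, -0.42 to 1.87). Trbv3 with 17 and 15 (0.14) and Trdv2-2 with 12 and 10 (0.06) lay near 0. Trbv12-2, with the most UMIs and so the narrowest interval, had a log2 ratio of 0.05 (-0.47 to 0.58).

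**Figure D5:**
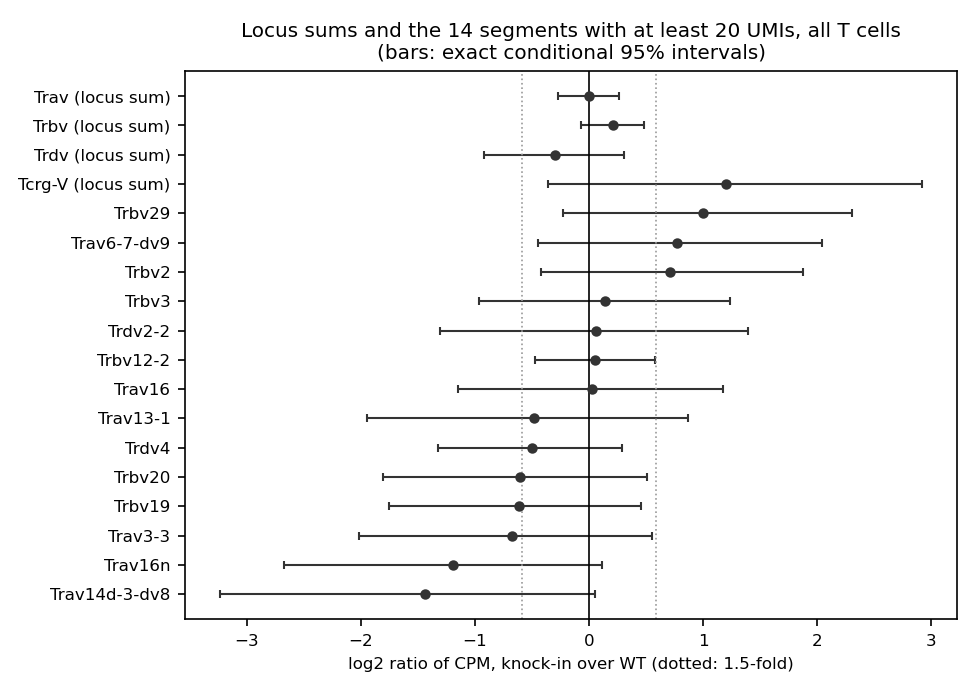
Log2 ratio of CPM in T cells, knock-in over wild-type (x axis), for the 4 locus sums and the 14 segments with at least 20 UMIs (y axis); bars are exact conditional 95% intervals, the solid line marks 0 and the dotted lines 1.5-fold. All 18 intervals cross 0, and Trav14d-3-dv8 and Trav16n lie furthest below it.

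Joined into families, 17 groups had at least 20 UMIs and 1 passed the rule. Trav12 was found in 5 wild-type cells (2.48% of Trav-positive cells) and in 14 knock-in cells (8.43%), with 8 and 16 UMIs and a log2 ratio of 1.32 (0.02 to 2.76). With TMM scaling it was 1.29 (-0.02 to 2.72), which ends the call. None of its 10 segments reached 20 UMIs alone. A share of 1 in 17 is near the 5.48% of all features that were higher, and nothing particular to the families is read from it.

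Between the CD4 and CD8 gates only 1 segment could be compared, since only Trbv12-2 had 20 UMIs over both gates in each library: 12 in CD4 and 22 in CD8 cells of the wild-type library, then 8 and 27 in knock-in cells. The log2 ratio of CD4 over CD8 was 0.20 (-0.95 to 1.28) and 0.24 (-1.10 to 1.42). It was not past 1.5-fold in either library, beside 7.87% of 7437 features that were higher in CD4 cells and 1.2% higher in CD8 cells in both. TMM scaling moved these ratios by -0.27 and -0.38, which takes the Trbv12-2 values to -0.07 and -0.14.

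Among families with at least 10 UMIs over both gates in each library, none differed in the same direction in both libraries with intervals that leave out 0. Trav13 had 9 UMIs in CD4 and 5 in CD8 cells of the wild-type library (log2 ratio 1.92, 0.19 to 3.85) but 1 and 12 in the knock-in library (-1.59, -7.00 to 1.17), so its direction was not shared. With TMM scaling the wild-type interval of Trav13 was -0.08 to 3.58 and includes 0. Trav16 was lower in CD4 cells in both, with 2 and 15 UMIs (-1.83, -5.01 to 0.27) and 2 and 19 (-1.25, -4.40 to 0.80), and both intervals include 0. Trbv13 had 6 and 5 UMIs (1.34, -0.64 to 3.39) and 5 and 8 (1.32, -0.64 to 3.11). The Trac constant region was higher in CD4 cells in both libraries (0.76, 0.62 to 0.90, and 0.63, 0.48 to 0.79), as was Cd247, the zeta signalling chain (0.69 and 1.04). With TMM scaling Trac came to 0.50 and 0.25 and Cd247 to 0.42 and 0.66, so that only Cd247 in the knock-in library stayed past 1.5-fold.

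Within the CD8 gate, effector-like cells were compared with the rest by Ccl5, a chemokine of memory and effector CD8 cells. Trbv was found in 9.46% of 148 wild-type and 12.4% of 194 knock-in cells with at least 3 Ccl5 UMIs, and in 10.0% of 299 and 14.5% of 379 cells with none. Trav was found in 16.2% and 11.9% of the Ccl5-high cells and in 11.04% and 8.44% of those with none. The intervals overlapped for both loci, and the Ccl5-high cells were deeper, with medians of 4577 and 4210 UMIs beside 3407 and 2853. Trbv12-2 led in 3 of the 4 sets; in wild-type Ccl5-high cells Trbv19 did, in 4 of 14 Trbv-positive cells (28.6%, 8.39 to 58.1%).

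A cell that rearranged productively should show 1 V segment per chain, or 2 for alpha, whose allelic exclusion is loose. More than 1 Trav segment was found in 7 of 202 wild-type (3.47%) and 8 of 166 knock-in Trav-positive cells (4.82%), and more than 1 Trbv segment in 10 of 194 (5.15%) and 8 of 187 (4.28%). Trbv12-2 was 1 of the pair in 6 of the 10 wild-type and 6 of the 8 knock-in cells with 2 Trbv segments. Its partners included Trbv13-2, Trbv15 and Trbv16 in both libraries.

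An alpha and a beta segment were read together in 17 wild-type and 23 knock-in T cells. With cells of more than 1 segment counted for each, these gave 20 and 24 distinct pairs, and the pair Trav3-3 with Trbv20 alone occurred in more than 1 cell, in 2 wild-type cells. Such numbers do not show an expanded clone, since a V segment without its joining sequence does not define one.

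The other genes of the receptor were read more deeply than the V segments. Of 19 genes for constant regions, signalling chains, coreceptors and recombination, 14 had at least 20 UMIs. Of these, 2 were higher in knock-in T cells and 0 lower, beside 5.48% higher and 4.1% lower of 10511 features. The 2 were Cd8a (385 and 589 UMIs, log2 ratio 0.94, 0.75 to 1.13) and Cd8b1 (1057 and 1273 UMIs, 0.59, 0.47 to 0.71), which code for the CD8 coreceptor, and CD8-gate cells were 27.0% of wild-type and 36.6% of knock-in T cells. In mixed T cells a higher share of CD8 cells and more CD8 RNA per cell cannot be told apart. Trac (3529 and 3631 UMIs, 0.37), Trbc1 (4661 and 4088, 0.13), Trbc2 (8329 and 7659, 0.20) and Trdc (238 and 249, 0.39) lay within 1.5-fold. The recombinase genes Rag1 and Rag2 had 0 UMIs in T cells. The 84 joining and diversity segments listed as features had 0 UMIs in T cells of either library.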

How the data were processed

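The authors deposited unnormalized UMI counts by gene and barcode for 2 spleen libraries, made with the 10x 3' chemistry per the labels. Cell Ranger 6.1.2 wrote them per the file headers, while version 7.1.0 of it stands in the submitters' processing notes, along with mm10 and Seurat 5.0.3. Cells with at least 500 UMIs, 200 genes and under 10% mitochondrial UMIs were kept. Scrublet (scanpy 1.11.5, expected rate 0.08), run on all barcodes of a library with genes in at least 3 cells, removed 213 wild-type (2.19%) and 194 knock-in cells (2.26%).

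UMIs were summed per library and gate and divided by the gate's total. Ratios carry exact conditional binomial intervals and shares Clopper-Pearson intervals, at 95%; a sum of 0 was placed at 3 counts. PCR duplicates are collapsed by UMI, and intervals and floors cover counting error only. All 175 members matched the GENCODE M21 annotation by Ensembl ID. Sequence identity was computed with Biopython 1.88, and TMM factors with edgeR 4.0.16 in R 4.3.3. The ratio step was checked on simulated counts.

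The segments and gene lists were chosen with earlier results of these data known. Segments named are the 8 Trbv and 8 Trav found in most T cells, Trdv and Tcrg-V in at least 5 gamma-delta-gate cells, the 5 highest and 5 lowest genotype ratios, any CD4 over CD8 extremes, and Trav1, Trav11 and Trav11d. Other segments named were chosen after their values were seen. Alternatives changed the Cd3 limit, mitochondrial limit, doublets, B cell transcripts, shared barcodes, depth, scaling, UMI minimum, families, and the CD8 and gamma-delta gates. Promoter sequences were not used here.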

Additional observations from a re-analysis of the deposited data

Results flagged for a closer look

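V segment UMIs also lay in cells outside the T cell gate, which enter none of the comparisons between genotypes or gates as reported. In wild-type cells with 1 Cd3 UMI there were 26 Trav, 22 Trbv and 8 Trdv UMIs, and in knock-in cells with 1 Cd3 UMI 20, 10 and 4. In wild-type cells with 0 Cd3 UMIs there were 7 Trav, 11 Trbv and 36 Trdv UMIs, and in such knock-in cells 4, 7 and 30. Cells with 1 Cd3 UMI numbered 364 and 280: Trav was found in 5.22% and 5.71% of them, beside 0.0815% and 0.0623% of the 7362 and 6422 cells with none. Trdv was found in 0.421% and 0.405% of the cells with none.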

How the results depend on the processing

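Of 198 recomputed main values, 173 stayed within the reported interval or within 1.5 times the reported count, and 25 moved. The log2 ratios of the 4 loci stayed within their intervals under every alternative, as did the CD4 over CD8 counts, which remained 0. The count of segments lower in the knock-in library went from 0 to 1 with 1 Cd3 UMI (Trav14d-3-dv8), 1 with 3 Cd3 UMIs (Trbv19), 2 with doublets kept (Trav14d-3-dv8 and Trav16n), 1 without cells with a B cell transcript (Trdv4, 38 and 13 UMIs) and 1 without a UMI minimum, where 2 were higher; joined by subgroup, 1 was higher. Thinned to 1000 UMIs, Trav was found in 3.74% of wild-type and 4.03% of knock-in T cells and Trbv in 3.63% and 3.97%, while more than 1 Trav segment was found in 0% and 1.49% of Trav-positive cells and more than 1 Trbv segment in 1.52% of knock-in Trbv-positive cells. With a segment present only at 2 UMIs, the shares were 1.78% and 1.42% for Trav and 1.17% and 0.889% for Trbv, more than 1 segment was found in 0% of Trav-positive wild-type cells and 0% of Trbv-positive cells of either library, and Trbv12-2 usage was 42.9% and 20% (9 of 21 and 3 of 15 cells). These 2 settings remove UMIs by construction. The gamma-delta gate set by 2 UMIs of Trdc and Tcrg-C with no Trac held 2.45% and 2.85% of T cells. No paired analysis was possible because each genotype has 1 library. Depth limits most single segments: the 87 detected segments under 20 UMIs cannot be compared.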
